A study of Mus musculus with 4 samples.

Results

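Polycomb repressive complex 2 (PRC2) was followed through 10 genes, which are named members of the complex: the catalytic subunits Ezh2 and Ezh1, the core subunits Eed, Suz12, Rbbp4 and Rbbp7, and the accessory subunits Mtf2, Phf1, Phf19 and Jarid2. They were taken by name as members of the complex, and each matched exactly 1 of the 34315 features in the count table. The data are mRNA sequencing of haematopoietic stem cells (HSCs), the rare marrow cells from which every blood lineage is renewed. They were taken by cell sorting, without culture, from C57BL/6 mice: side population cells (SP, defined by efflux of a dye) with the KSL-CD150+ surface phenotype. The groups are HSCs labelled Dnmt3a knockout, which lack a de novo DNA methyltransferase, and wild-type HSCs. The knockout arm enters as the authors' deposited mean count over its libraries, with no spread. The sources used here do not say how Dnmt3a was deleted, or in which part. The wild-type arm is 4 libraries that the labels call technical replicates of biological replicate 1. The ages of the mice are likewise not stated in them.

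PRC2 places methyl groups on lysine 27 of histone H3, a mark of silenced developmental genes. Ezh1 and Ezh2 are alternative methyltransferase subunits: Ezh2 is the more active enzyme and is typical of dividing cells, while Ezh1 is also found in resting cells. Suz12 is the scaffold, Eed binds the finished mark and stimulates the enzyme, and Rbbp4 and Rbbp7 are histone-binding proteins shared with several other complexes. The Polycomb-like proteins Mtf2, Phf1 and Phf19 define one form of the complex (PRC2.1), and Jarid2 with Aebp2 defines the other (PRC2.2). In blood stem cells the complex has been linked to differentiation and to self-renewal.

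The promoters of Ezh2, Ezh1 and Phf1 are shown because these genes held the lowest ratio among the members, its paralogue and the highest ratio. The capitals mark CG dinucleotides, the sites at which Dnmt3a methylates DNA. Each window runs from 250 bases before to 50 bases after the RefSeq start, so that base 251 is the first transcribed base (RefSeq, GRCm38.p6). The Ezh2 window is chr6:47594981-47595280 on the minus strand, the Ezh1 window chr11:101226414-101226713 on the minus strand and the Phf1 window chr17:26932877-26933176 on the plus strand.
Ezh2: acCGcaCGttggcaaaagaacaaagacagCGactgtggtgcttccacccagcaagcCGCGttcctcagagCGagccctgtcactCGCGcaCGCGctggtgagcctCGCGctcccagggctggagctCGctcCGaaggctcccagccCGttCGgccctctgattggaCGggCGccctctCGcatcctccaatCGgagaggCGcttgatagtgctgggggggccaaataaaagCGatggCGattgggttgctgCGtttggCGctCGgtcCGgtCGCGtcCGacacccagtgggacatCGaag
Ezh1: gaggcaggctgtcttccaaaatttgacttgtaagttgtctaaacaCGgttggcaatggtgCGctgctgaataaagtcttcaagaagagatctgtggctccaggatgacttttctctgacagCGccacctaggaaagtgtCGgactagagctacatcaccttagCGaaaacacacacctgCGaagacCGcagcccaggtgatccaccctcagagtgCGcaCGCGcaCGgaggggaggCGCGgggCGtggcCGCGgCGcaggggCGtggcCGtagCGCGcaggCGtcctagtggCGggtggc
Phf1: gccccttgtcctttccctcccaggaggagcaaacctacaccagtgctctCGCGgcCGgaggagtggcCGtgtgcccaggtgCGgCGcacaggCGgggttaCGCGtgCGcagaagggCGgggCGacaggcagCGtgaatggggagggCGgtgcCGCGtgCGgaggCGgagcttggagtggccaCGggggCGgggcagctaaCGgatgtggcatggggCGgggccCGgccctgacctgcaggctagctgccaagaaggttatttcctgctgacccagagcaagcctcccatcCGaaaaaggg
The Ezh2 window holds 31 CG dinucleotides, the Ezh1 window 23 and the Phf1 window 24, against a median of 7 over 32851 windows of the same length. All 10 members matched RefSeq windows, 12 in all since Mtf2 and Jarid2 have a pair each, and 11 of the 12 hold more CG dinucleotides than that median. The exception is the downstream window of Mtf2, with 2. An E2F-type motif was searched on both strands as TTTGGCGC, TTTCCCGC, TTTGCCGC or TTTCGCGC, which do not overlap one another in these windows. It occurs in 3 of the 12 windows, those of Ezh2 (TTTGGCGC at base 254, plus strand of the window), Suz12 (TTTCCCGC at base 32) and Phf19 (TTTCCCGC on the opposite strand at base 43), and in 2.26% of all windows. Each word searched itself holds a CG, and the member windows had a median of 27 CG dinucleotides against 7 over all windows. The share over all windows is therefore not matched for CG content. A match describes these letters only.

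Wild-type libraries held 40709659 to 47408552 counts, and the knockout mean summed to 41930967. Counts were divided by library size factors and the knockout mean was placed on the same scale, which gives the normalised read counts below. Libraries 1 and 2 agreed closely, as did libraries 3 and 4: the median chi-square per degree of freedom over features was 0.751 and 0.656 within the pairs, against 14.9 to 15.4 between libraries of different pairs. Each pair is therefore counted as 1 sample, and n = 2 below means these 2 averaged pairs of 1 biological replicate, whose spread may be technical. All 8 stem cell markers fixed for the check (Kit, Ly6a, Slamf1, Procr, Hlf, Meis1, Mecom and Abcg2) had reads in every wild-type library and in the knockout mean. None was called, and their summed level was 111041 normalised counts in the knockout arm and 119109 to 149266 in wild type. The sum hides opposite differences: 3 markers were at least 2-fold higher and 2 at least 2-fold lower, against 16.4% and 19.7% of measured features. Procr stood at 21292 in the knockout arm and at 2907 to 4982 in wild type, and Hlf at 9511 against 28842 to 40367. Dnmt3a itself was at 8424 normalised counts in the knockout arm and at 8229, 8569, 5400 and 5208 in wild-type libraries 1 to 4, so this count over the whole gene does not set the arms apart and does not check the label. In bulk samples, fewer cells of a type and less RNA per cell cannot be told apart.

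All 10 genes were well counted, with at least 878 reads in the knockout mean and 1081 in every wild-type library. Calls were read from the authors' deposited table with 0.05 as the limit of the adjusted p. No member was called higher or lower, against 3.15% of 21778 tested features called higher and 3.7% called lower. Their adjusted p-values in the authors' deposited table ran between 0.12 for Ezh2 and 0.995 for Rbbp7. The smallest change that the authors' deposited table calls was a 5.69-fold rise and a 5.72-fold fall, and every member differed by less than that. Unadjusted p-values were not analysed here, and no other tool was run because the spread between the knockout libraries was not analysed here. The values below are therefore differences between a knockout mean and the wild-type libraries, set beside how common such differences are over all features.

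**Figure D1:**
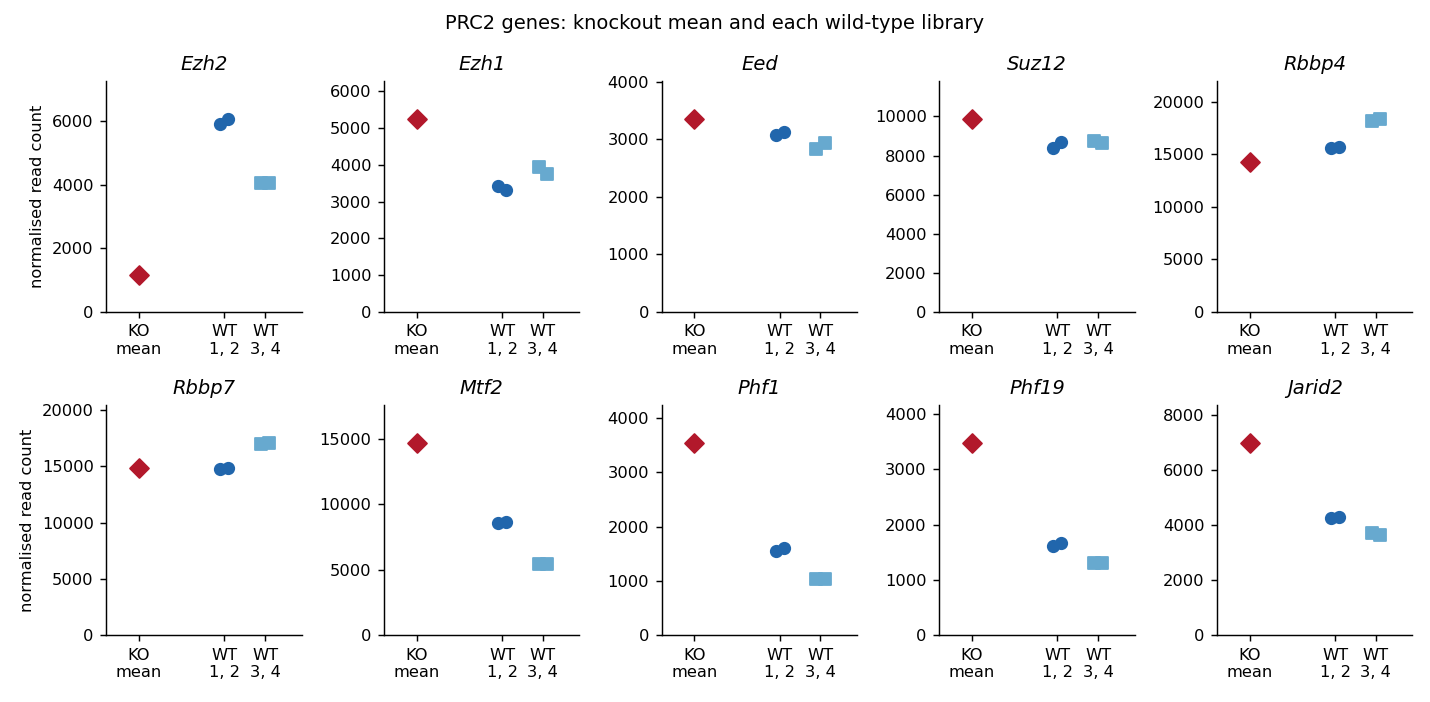
Normalised read counts (vertical axes, each starting at 0) of the 10 PRC2 genes, with the knockout (KO) mean as a red diamond, wild-type (WT) libraries 1 and 2 as dark circles and libraries 3 and 4 as light squares. The knockout mean of Ezh2, at 1158, lies far below every wild-type library, and those of Mtf2, Phf1, Phf19 and Jarid2 lie above every one.

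The catalytic pair showed opposite differences. Ezh2 (chromosome 6, 47480273 to 47545029, minus strand, mm9) stood at 1158 normalised counts in the knockout arm and at 5900, 6051, 4053 and 4056 in wild-type libraries 1 to 4. The knockout value was below all 4 libraries, which themselves fell into a higher and a lower pair. It was 4.33-fold lower than the wild-type mean of 5015 ± 1358 (SD, n = 2), a log2 ratio of -2.11, and -2.11 with an adjusted p of 0.12 according to the authors' deposited table. Against libraries 1 and 2 alone it was 5.16-fold lower, and against libraries 3 and 4 alone 3.50-fold lower. Among all 17685 features with a mean of at least 10 normalised counts, 7.11% had a log2 ratio as low as that of Ezh2, and 19.7% were at least 2-fold lower in the knockout arm.

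Ezh1 (chromosome 11, 101052429 to 101087764, minus strand) stood at 5234 normalised counts in the knockout arm and at 3427, 3326, 3935 and 3759 in wild-type libraries 1 to 4. The knockout value was above every wild-type library, by 1.45-fold over the mean of 3612 ± 333 (SD, n = 2), and the authors' deposited table gives a log2 fold change of 0.54 with an adjusted p of 0.878. A value outside all 4 libraries is common here: 38.6% of measured features had a knockout mean above every wild-type library and 40.1% had one below. A log2 ratio as high as that of Ezh1 was found in 27.9% of measured features. Scaled by total counts, the log2 ratio of Ezh1 was 0.20, still above every library.

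The balance between the 2 enzymes does not depend on how the libraries are scaled. In reads per kb of exon, Ezh2 stood to Ezh1 as 0.349 to 1 in the knockout arm, with an exact 95% counting interval of 0.336 to 0.362. The same ratio was 2.71 (2.60 to 2.84), 2.87 (2.75 to 2.996), 1.62 (1.56 to 1.70) and 1.70 (1.63 to 1.78) in wild-type libraries 1 to 4. Ezh2 was thus the more abundant transcript of the pair per kb in every wild-type library, and Ezh1 in the knockout mean. Ezh2 made up 25.9% of the length-scaled sum of the 2 genes in the knockout arm and 73.1%, 74.1%, 61.9% and 63.0% in wild-type libraries 1 to 4. The intervals come from the exact binomial method. In the knockout arm the interval rests on 4 times the mean count, 3513 reads of Ezh2 and 15879 of Ezh1, as if 4 libraries were pooled. Each wild-type interval rests on 1 library, so the widths are not alike. The intervals reflect counting error alone. They may be too narrow even for that, because reads copied by PCR do not each stand for a molecule.

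**Figure D2:**
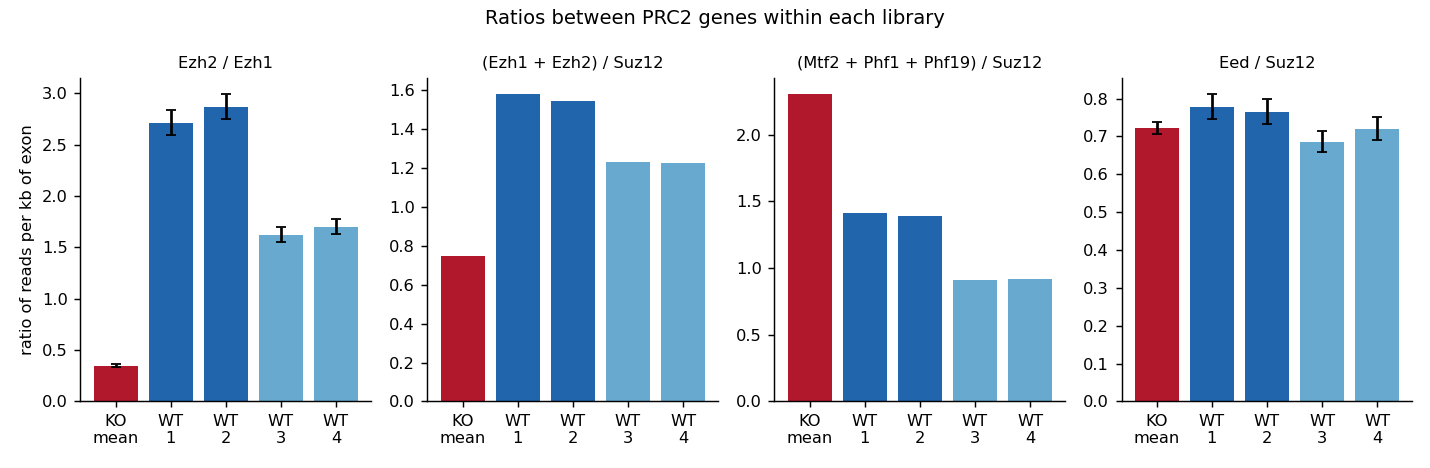
Ratios of reads per kb of exon between PRC2 genes within the knockout (KO) mean and within each wild-type (WT) library, with exact 95% counting intervals where 2 single genes are compared. Knockout intervals rest on 4 times the mean count and wild-type intervals on 1 library each. The bar for Ezh2 over Ezh1 is 0.349 in the knockout arm and at least 1.62 in wild type, while Eed over Suz12 stays within the wild-type range.

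The core subunits differed little. Eed (chromosome 7, 97103164 to 97129486) stood at 3343 normalised counts in the knockout arm and at 3076, 3125, 2824 and 2928 in wild-type libraries 1 to 4. Suz12 (chromosome 11, 79806608 to 79847625) stood at 9846 in the knockout arm and at 8405, 8688, 8761 and 8649 in wild-type libraries 1 to 4. The knockout values of Eed and Suz12 lay a little above every wild-type library under this scaling, with log2 ratios of 0.16 and 0.19. Scaled by total counts they lay below every library, at -0.18 and -0.15, so the direction for these genes depends on the scaling. The last 2129 bases of Suz12 are shared with HAG_006927, a feature on the opposite strand, and reads without strand cannot be divided between them.

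The histone-binding subunits were the most abundant members. Rbbp4 (chromosome 4, 128984344 to 129012614) stood at 14224 normalised counts in the knockout arm and at 15572, 15677, 18135 and 18291 in wild-type libraries 1 to 4. Rbbp7 (chromosome X, 159198304 to 159217022) stood at 14829 in the knockout arm and at 14738, 14861, 17015 and 17049 in wild-type libraries 1 to 4. Rbbp4 was below every library, with a log2 ratio of -0.25, and Rbbp7 lay within the wild-type range, at -0.10. Each overlaps a neighbour on the opposite strand at one end, Sync for Rbbp4 over 1460 bases and Txlng for Rbbp7 over 172 bases. The ratio of Rbbp4 to Rbbp7 per kb was 0.493 in the knockout arm and 0.543, 0.542, 0.548 and 0.552 in wild-type libraries 1 to 4.

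All 3 Polycomb-like genes were higher in the knockout mean, and these were the members that exceeded a 2-fold difference upwards, against 16.4% of measured features. Mtf2 (chromosome 5, 108494693 to 108538238), which binds CG-rich DNA and helps bring the complex to it, stood at 14670 normalised counts in the knockout arm and at 8569, 8652, 5476 and 5425 in wild-type libraries 1 to 4. Phf1 (chromosome 17, 27070072 to 27074835) stood at 3538 in the knockout arm and at 1550, 1602, 1031 and 1038 in wild-type libraries 1 to 4. Phf19 (chromosome 2, 34749275 to 34769496) stood at 3470 in the knockout arm and at 1612, 1660, 1314 and 1309 in wild-type libraries 1 to 4. For all 3 the knockout mean was above every wild-type library, and libraries 1 and 2 were above libraries 3 and 4.

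The ratio over the wild-type mean was 2.71-fold for Phf1, 2.35-fold for Phf19 and 2.09-fold for Mtf2. The authors' deposited table gives adjusted p-values of 0.395 for Phf1, 0.506 for Phf19 and 0.611 for Mtf2. Against libraries 1 and 2 alone the ratios were 2.24-fold for Phf1, 2.12-fold for Phf19 and 1.70-fold for Mtf2. Scaled by total counts, only Phf1 stayed at least 2-fold higher, with a log2 ratio of 1.09, while Phf19 stood at 0.89 and Mtf2 at 0.72. That scaling shifts the median of all measured features by -0.34 on the log2 scale, so relative to the other features the 3 genes keep their place.

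Jarid2 (chromosome 13, 44826143 to 45017012), which binds nucleosomes and stimulates the enzyme, stood at 6989 normalised counts in the knockout arm and at 4267, 4292, 3716 and 3652 in wild-type libraries 1 to 4. The knockout mean was above every library, 1.76-fold over the wild-type mean of 3982 ± 421 (SD, n = 2), and the authors' deposited table gives an adjusted p of 0.747. Its PRC2.2 partner Aebp2 stood at 8004 in the knockout arm and at 5743, 5699, 5595 and 5650 in wild-type libraries 1 to 4, a log2 ratio of 0.50.

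**Figure D3:**
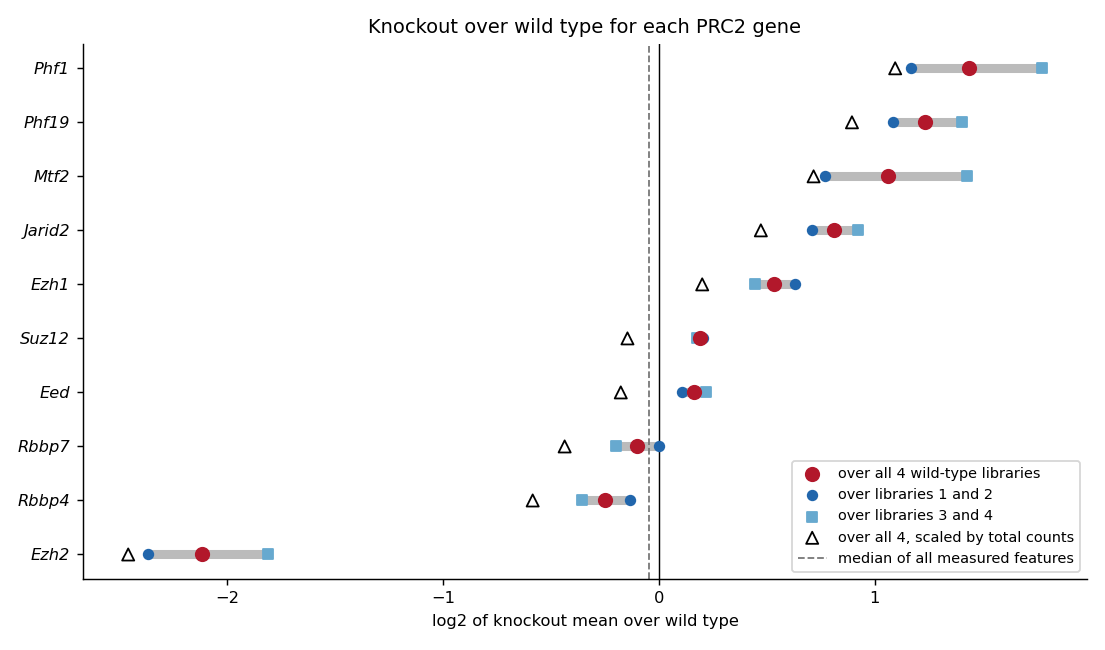
Log2 of the knockout mean over wild type (horizontal axis) for each PRC2 gene (rows), over all 4 libraries in red, over libraries 1 and 2 as dark circles, over libraries 3 and 4 as light squares, and over all 4 after scaling by total counts as triangles. Ezh2 stands apart at -2.11, the accessory genes lie between 0.81 and 1.44 in red, and the core subunits lie near the dashed median of all measured features at -0.04.

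Over the 10 members, 7 had a knockout mean above every wild-type library, 2 below and 1 within, against 38.6% above, 40.1% below and 21.3% within over all measured features, so a place outside the wild-type range is common among all features too. Scaled by total counts, 5 members were above and 5 below, and the shares over all features were not counted under that scaling. With the first scaling, 7 log2 ratios were positive and 3 negative. The median log2 ratio was 0.36, against -0.04 over all measured features, and under scaling by total counts it was 0.028 against -0.38. All 10 members passed the minimum mean of 10 normalised counts, each in both arms.

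Within-library ratios describe the make-up of the complex at the RNA level without any scaling between arms. Relative to Suz12, the summed reads per kb of Ezh1 and Ezh2 were 0.749 in the knockout arm and 1.58, 1.55, 1.23 and 1.23 in wild-type libraries 1 to 4. The summed Polycomb-like genes were 2.31 in the knockout arm and 1.41, 1.39, 0.910 and 0.918 in wild-type libraries 1 to 4. Jarid2 was 0.504 in the knockout arm and 0.360, 0.351, 0.301 and 0.2997 in wild-type libraries 1 to 4. In each of these ratios the knockout mean lay outside the wild-type range. So did the ratio of Rbbp4 to Rbbp7, at 0.493 against 0.542 to 0.552. Among single measured features 38.6% lay above and 40.1% below that range, and the share among ratios of genes was not counted.

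Eed per Suz12, in contrast, was 0.722 in the knockout arm and 0.779, 0.765, 0.686 and 0.720 in wild-type libraries 1 to 4, so the knockout mean lay inside the range. With Eed in place of Suz12, whose count may include antisense reads, the Ezh1 and Ezh2 sum was 1.04 in the knockout arm and 2.03, 2.02, 1.79 and 1.70 in wild-type libraries 1 to 4. The Polycomb-like sum per Eed was 3.19 in the knockout arm and 1.81, 1.81, 1.33 and 1.27 in wild-type libraries 1 to 4. These are transcript ratios, and protein levels were not measured.

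Among the Polycomb-like genes themselves, Mtf2 was the major transcript per kb in both arms. It held 54.0% of their sum in the knockout arm and 60.5%, 59.96%, 57.4% and 57.1% in wild-type libraries 1 to 4. Phf1 held 28.1% in the knockout arm and 23.6%, 24.0%, 23.3% and 23.6% in wild-type libraries 1 to 4. Phf19 held 17.9% in the knockout arm and 15.9%, 16.1%, 19.3% and 19.3% in wild-type libraries 1 to 4. The Phf1 share was thus above, the Mtf2 share below and the Phf19 share within the wild-type range.

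Per kb of exon, the normalised counts of the members in the knockout mean were highest for Rbbp7 (6561), Rbbp4 (3236) and Mtf2 (2815). They were followed by Suz12 (2260), Eed (1632), Phf1 (1466), Ezh1 (1254), Jarid2 (1138), Phf19 (931) and Ezh2 (437). In wild type the order was Rbbp7 (7042 ± 698), Rbbp4 (3850 ± 416), Suz12 (1980 ± 25.8), Ezh2 (1895 ± 513), Eed (1459 ± 77.6), Mtf2 (1349 ± 429), Ezh1 (865 ± 79.8), Jarid2 (649 ± 68.6), Phf1 (541 ± 159) and Phf19 (395 ± 61.6), each as mean ± SD with n = 2. Neighbours whose ranges over the 4 wild-type libraries overlapped were Suz12 and Ezh2, Eed and Mtf2, Jarid2 and Phf1, and Phf1 and Phf19. Ezh2 thus held rank 10 in the knockout arm and rank 4 in wild type. Mtf2 held rank 3 in the knockout arm and rank 6 in wild type.

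Wild-type libraries also differed from one another in these genes. Comparing libraries 3 and 4 with libraries 1 and 2, Mtf2 was at 63.3% of its level, Phf1 at 65.6%, Ezh2 at 67.9% and Phf19 at 80.2%, while Rbbp4 was at 117% and Rbbp7 at 115%. The members at least 1.2-fold apart were 4 of 10, against 56.5% of features with a wild-type mean of at least 10, and none was 2-fold apart, against 12.9%. The pairs are not groups that the labels define, so they were not tested against each other. Ezh2 and the Polycomb-like genes, which lie on opposite sides of wild type in the knockout mean, were both lower in libraries 3 and 4.

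Among genes of cell division, 7 of 21 fell in the authors' deposited table and none rose, against 3.7% of tested features called lower and 3.15% called higher. The other 14 were not called, and the median log2 ratio over all 21 was -1.99, with the replication clamp Pcna, at -0.11, within the wild-type range. Those that fell were the mitotic cyclins Ccna2, Ccnb1 and Ccnb2, the mitotic kinases Bub1 and Aurkb, and the E2F factors E2f2 and E2f8. Ccnb1 stood at 96.9 normalised counts in the knockout arm and at 2189, 2065, 2009 and 1866 in wild-type libraries 1 to 4, and the authors' deposited table puts its log2 fold change at -4.37. E2f8 stood at 333 in the knockout arm and at 3581, 3616, 2031 and 2000 in wild-type libraries 1 to 4. The summed level of the list was 60781 normalised counts in the knockout arm and ran between 165388 and 224252 in the wild-type libraries. Of the 21 genes, 9 had a lower log2 ratio than Ezh2. All 21 were lower in libraries 3 and 4 than in libraries 1 and 2, and 4 of them by more than Ezh2 was. Mtf2, Phf1, Phf19, Jarid2 and Eed were lower there too, and the share of all features with this direction was not counted. The part of the lower proliferation genes in the level of Ezh2 was not tested.

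**Figure D4:**
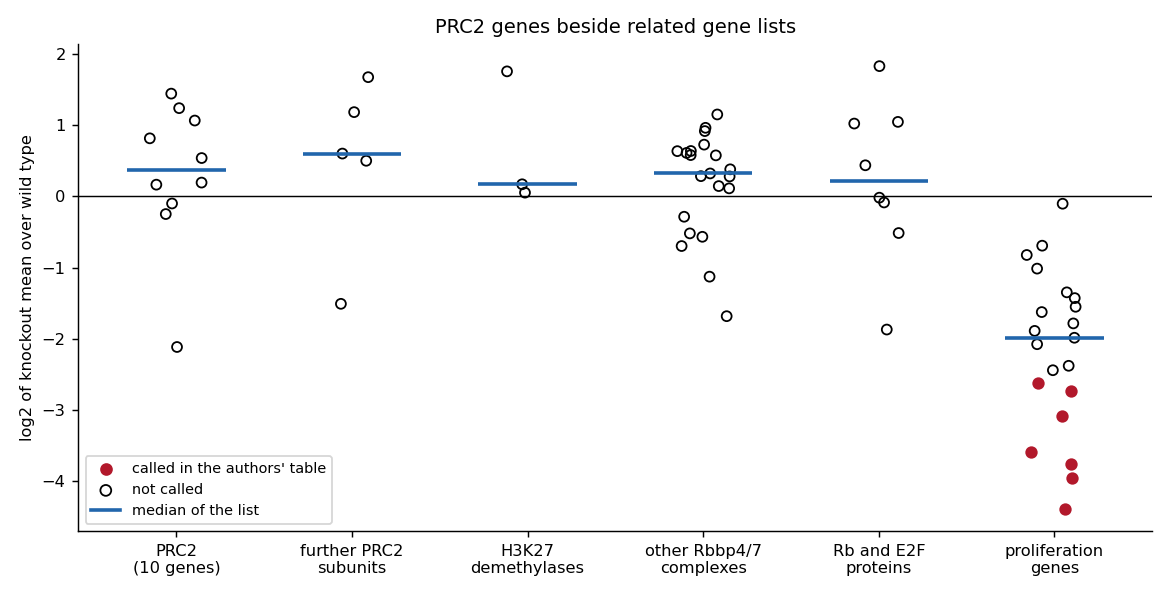
Log2 of the knockout mean over wild type (vertical axis) for the PRC2 genes and for the measured genes of 5 related lists, with filled points for genes called in the authors' deposited table and a bar at each median. The filled points all belong to the proliferation list, whose median is -1.99, while the PRC2 median is 0.36.

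Other genes that act with or against the complex were mostly not called. The list of further PRC2 subunits and inhibitors held 6 genes (Aebp2, Epop, Skida1, Lcor, Lcorl and the inhibitor Ezhip), of which 5 were measured, none was called and 4 had a positive log2 ratio, with a median of 0.60. The largest ratios were 1.67 for Lcor, whose locus also encodes a PRC2 accessory protein, and -1.51 for its relative Lcorl, which overlaps Ncapg. Lcor stood at 1610 normalised counts in the knockout arm and at 609, 646, 370 and 400 in wild-type libraries 1 to 4. Ezhip had no reads in wild type.

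None of the 3 demethylases that act on the same histone residue, or are related to such enzymes, was called. Kdm6b, an enzyme that removes the PRC2 mark, stood at 10429 normalised counts in the knockout arm and at 3086, 3158, 3181 and 2969 in wild-type libraries 1 to 4. The knockout mean was 3.37-fold over wild type and its adjusted p was 0.244 by the authors' deposited table, while the 4 wild-type libraries lay close together. Its relative Kdm6a stood at 3919 in the knockout arm and at 3827, 3727, 3741 and 3848 in wild-type libraries 1 to 4. Uty, the Y-linked relative, had a log2 ratio of 0.17.

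The other complexes that use Rbbp4 or Rbbp7 were represented by 21 genes of NuRD, Sin3, CAF-1 and NURF, of which none was called. Their median log2 ratio was 0.32, with 15 positive and 6 negative. The largest ratios were -1.68 for Chaf1b, a subunit of the replication-coupled histone chaperone CAF-1, and 1.15 for the NuRD helicase Chd3. Chaf1b stood at 1490 normalised counts in the knockout arm and at 4885, 4875, 4696 and 4681 in wild-type libraries 1 to 4. Of 8 further Rb and E2F family genes none was called, with a median of 0.21. That list leaves out E2f1, E2f2 and E2f8, which were counted among the proliferation genes and of which E2f2 and E2f8 fell. The pocket protein Rbl1 stood at -1.87 and the repressor E2f7 at 1.82. Scaled by total counts, the medians were -0.014 for the complexes that share Rbbp4 or Rbbp7, with 10 of 21 positive, -0.13 for the Rb and E2F genes, -0.17 for the demethylases, 0.26 for the further PRC2 subunits and -2.33 for the proliferation genes, against -0.38 over all measured features. The sign of a list median near 0 is therefore set by the scaling, which moves all features alike.

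A list of 16 loci that PRC2 is known to repress in other cells was near silent in both arms. Of these, 14 had fewer than 10 normalised counts in the knockout mean and in every wild-type library, including the cell cycle inhibitor Cdkn2a, at 2.31 in the knockout arm and between 0 and 4.19 in wild type. Only Cdkn2a, Gata6 and Foxa2 had a fold change in the authors' deposited table, and the other loci of the list were not tested there. Of those tested, the endoderm factor Foxa2 was the 1 that rose, with an adjusted p of 0.00464 by that table. Over all tested features 3.15% were called higher. It stood at 51.7 normalised counts in the knockout arm and at 0, 0, 8.59 and 1.88 in wild-type libraries 1 to 4, and it passed the minimum level through the knockout arm alone. Gata6 stood at 16.5 in the knockout arm and at 0, 1.05, 2.86 and 1.88 in wild-type libraries 1 to 4, and was not called in the authors' deposited table, where its adjusted p was 0.0859. In library 1, the shallowest, a count of 0 allows a level of up to 0.0737 CPM, with 3 counts as the floor.

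Markers of maturing blood cells and of stroma were counted in the same way, against 3.7% of tested features called lower. Of 8 erythroid markers 5 fell, with summed levels of 649.96 normalised counts in the knockout arm and 5455 to 7212 in wild type. Of 6 megakaryocyte markers 3 fell, with 5354 in the knockout arm and 21660 to 24962 in wild type. Of 5 mast cell and basophil markers 4 fell, with 96.2 in the knockout arm and 887 to 1602 in wild type. None of the 9 neutrophil and monocyte markers was called and none lay outside the wild-type range, with 40046 in the knockout arm and 22008 to 59734 in wild type. That range is wide, since their median log2 difference was -2.73 for libraries 3 and 4 against libraries 1 and 2. A place within it therefore says little. Of 9 lymphoid markers 2 fell, with 369 in the knockout arm and 1077 to 1490 in wild type. Il7r, which fell, was at 0 in the knockout arm and at 23.1, 29.3, 112 and 105 in wild-type libraries 1 to 4. Pax5 and Cd3e were at 0 in the knockout arm too, but did not reach the minimum mean of 10 normalised counts. Pax5 was also at 0 in wild-type library 4 and Cd3e in library 2, so their zeros show no loss. Of 6 stromal and endothelial markers 2 fell, with 3880 in the knockout arm and 4019 to 5667 in wild type. The log2 ratios of these 6 were 3 positive (Col1a1, Col1a2 and Cdh5) and 3 negative, with a median of 0.17. The authors' deposited table is the source of these calls. The part of these cells in the PRC2 values was not tested.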

How the data were processed

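RNA of sorted HSCs was extracted with a Qiagen RNeasy Micro kit, selected for polyA and made into TruSeq libraries, per the labels' protocols. The kit, as the labels name it, keeps no strand information. The deposited table holds whole read counts per feature for 4 wild-type libraries. Per the submitters' processing notes the build was mm9 and DESeq was among the tools, with no role given. The sources used here name no aligner, counter or annotation. The authors also deposited a signal scaled by length, headed FPKM. For 20187 features its quotient by the count did not differ between libraries, so depth does not enter it (counts per kb of exon over a constant of 50), and only exon lengths were taken from it. The deposited log2 fold change runs knockout over wild type, and the deposited p-value is read as adjusted. The table has 30 columns, and 8 per-library columns that match none of the samples were left out.

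Size factors were computed by median of ratios (0.951, 0.955, 1.05 and 1.06) and divided into the counts, and the knockout mean was raised by the offset of 0.399 (log2) that fits the authors' fold changes over 11933 features. Measured features had a mean of both arms of at least 10 normalised counts. No test between genotypes was run. The calculations, with Python 3.11.15, pandas 2.3.3, scipy 1.17.1 and edgeR 4.0.16 (TMM only), were tested on simulated data. Members and lists were chosen with earlier results of these data known. Named genes were all members and, per list, the called genes or the 2 with the largest log2 ratio and a mean of at least 50. Aebp2, Kdm6a, Gata6, Cdkn2a, Pcna and E2f1 were named after their values were seen. Older symbols were matched through RefSeq synonyms.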

Additional observations from a re-analysis of the deposited data

How the results depend on the processing

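Scaling by total counts, which lowers the median of all measured features by 0.34 on the log2 scale, moved the median member log2 ratio to 0.028, the members at least 2-fold higher to 1, and the members above and below every wild-type library to 5 each. It gave negative ratios for Eed (-0.18) and Suz12 (-0.15), and the shares of all features outside the wild-type range were not counted under it. Against libraries 1 and 2 alone the ratio of Rbbp7 was 0.0028. TMM factors left each of these counts the same. The authors' own fold changes are no separate check, since the knockout mean was placed on the scale with them. Without any 1 wild-type library the median ran between 0.34 and 0.39 and the members at least 2-fold higher between 2 and 3, with 2 when library 3 or 4 was left out. The Ezh2 to Ezh1 ratio in wild type was 2.19 per kb and 1.39 in raw reads, and 2.79 in libraries 1 and 2 against 1.66 in libraries 3 and 4. Of 90 alternative log2 ratios of single members, 83 moved by less than the SD between pairs and 3 changed sign. The numbers called stayed at 0 at adjusted p thresholds of 0.1 and 0.01 in the authors' deposited table. Counts of 2-fold members, of positions outside the wild-type range and their alternatives were added after seeing the data. No paired analysis was possible because the labels hold only 1 group.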

Other observations

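Kdm6b, which removes the mark that PRC2 places, and Ezh2, which places it, lay on opposite sides of wild type in the knockout mean. Their log2 ratios were 1.75 and -2.11, and neither was called in the authors' deposited table. Scaled by total counts the ratios were 1.41 and -2.46, so their sizes depend on the scaling. Over all measured features, 16.4% were at least 2-fold higher and 19.7% at least 2-fold lower. The other demethylases counted, Kdm6a and Uty, had log2 ratios of 0.05 and 0.17. Kdm6b varied little between the wild-type pairs, with a log2 difference of -0.02 for libraries 3 and 4 against libraries 1 and 2, where Ezh2 had -0.56. The smallest fall called in the authors' deposited table was 5.72-fold, which is an observed value and not a set cutoff. That of Ezh2 over all libraries was 4.33-fold. Against libraries 1 and 2 alone Ezh2 was 5.16-fold lower, a comparison for which that table holds no call.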
